A study of Homo sapiens with 60 samples.

Results

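The 10 genes described here encode proteins that fold, hold or clear other proteins in the endoplasmic reticulum: HSPA5, HSP90B1, CALR, PDIA4, PDIA6, DNAJB9, SDF2L1, HYOU1, HERPUD1 and CRELD2. They were chosen by symbol, and all 10 were found among the 60675 rows of the gene table, each as 1 row. Their levels were followed in 60 RNA sequencing libraries of HepG2, an established human hepatocellular carcinoma line, collected 24 h after treatment. The vehicle group was labelled 0.1% DMSO (3 libraries), while the series text gives 2% DMSO for it. The other groups received ethanol extracts of 6 medicinal plants or of 2 formulas, each labelled with doses of 500, 100 and 20 µg/mL. The plant extracts, called here by the first part of the plant's name, were Angelicae Gigantis Radix (Angelica), Paeoniae Radix (Paeonia), Cnidii Rhizoma (Cnidium), Rehmanniae Radix Preparata (Rehmannia), Astragali Radix (Astragalus) and Cinnamomi Cortex (Cinnamon). Sagunja-tang and Samul-tang are the formulas. Each dose had 3 libraries with Astragalus, Cinnamon, Cnidium or Rehmannia, 2 with Angelica, Paeonia or Sagunja-tang, and 1 with Samul-tang, whose values are given without a test. The series text adds that more toxic extracts were given in a lower series of doses, so a labelled 500 µg/mL may not be the same amount for every extract. The labels do not say whether the replicates of a group were separate cultures, so the p-values measure the spread between these libraries, which may be technical.

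Secreted and membrane proteins enter the endoplasmic reticulum unfolded, and chaperones, lectins and disulfide isomerases in its lumen help them fold. When unfolded proteins accumulate, the sensors IRE1, PERK and ATF6 start the unfolded protein response. IRE1 and ATF6 act through the transcription factors XBP1 and cleaved ATF6 on the promoters of the lumenal chaperones, and PERK slows translation and raises ATF4. Hepatocytes secrete large amounts of plasma protein, and these chaperones are among their abundant transcripts. All p-values for genes below are adjusted by the Benjamini-Hochberg method over 16692 genes, from edgeR's two-sided quasi-likelihood test fitted to all 60 libraries. Rose and fell are used only for an adjusted p below 0.05.

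The 10 genes lie on GRCh38 as annotated by GENCODE 29. HSPA5, the lumenal Hsp70 known as BiP, spans chr9:125234853-125241330 on the minus strand. HSP90B1, the lumenal Hsp90 (GRP94), spans chr12:103930107-103953645 on the plus strand. HYOU1, a large Hsp70-like exchange factor for BiP, spans chr11:119044189-119057202 on the minus strand. CALR, the lectin chaperone calreticulin, spans chr19:12938578-12944489 on the plus strand. The disulfide isomerases PDIA4 (chr7:149003062-149028641) and PDIA6 (chr2:10783391-10837977) are both on the minus strand. DNAJB9, a J-domain partner of BiP, spans chr7:108569568-108574850 on the plus strand, and SDF2L1, found in complexes of BiP with other J-domain proteins, spans chr22:21642261-21644298 on the plus strand. CRELD2, an EGF-domain protein of the lumen, spans chr22:49918167-49927540 on the plus strand. HERPUD1, which is no chaperone but a membrane protein of the machinery that removes misfolded proteins, spans chr16:56932048-56944863 on the plus strand.

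The promoters of these genes are shown because 8 of the 10 carry a spaced element bound by the unfolded protein response factors, and because the genes did not move as a block. RefSeq entries (GRCh38.p14) were matched by symbol for all 10 genes, with 12 entries in all, and the 250 bases before each start were searched on both strands. The first element searched was the endoplasmic reticulum stress response element (ERSE), CCAAT and CCACG with any 9 bases between them. The second was ERSE-II, ATTGG and CCACG with any 1 base between them. ERSE stood in 26 of 35116 promoter entries (0.074%) and ERSE-II in 18 (0.0513%). Of the 10 genes, 5 carried ERSE and another 3 carried ERSE-II. The fixed bases are in capitals below, and each stretch is printed in the orientation in which the element reads as spelled above, with 5 bases on either side.
HSPA5, chr9:125241386-125241414, minus strand: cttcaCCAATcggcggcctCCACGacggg
HSP90B1, chr12:103930211-103930239, plus strand: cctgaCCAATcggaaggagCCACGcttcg
HSP90B1, chr12:103930316-103930344, minus strand: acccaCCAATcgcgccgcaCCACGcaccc
CALR, chr19:12938379-12938407, minus strand: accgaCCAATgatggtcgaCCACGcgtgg
PDIA6, chr2:10812848-10812876, minus strand: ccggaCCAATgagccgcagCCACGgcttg
CRELD2, chr22:49918549-49918577, minus strand: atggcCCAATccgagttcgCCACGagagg
HYOU1, chr11:119057269-119057289, plus strand: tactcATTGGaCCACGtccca
HYOU1, chr11:119057375-119057395, plus strand: ctgggATTGGaCCACGtcacg
SDF2L1, chr22:21642109-21642129, minus strand: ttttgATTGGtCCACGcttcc
HERPUD1, chr16:56932020-56932040, plus strand: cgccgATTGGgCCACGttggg
The ERSE of HSPA5 lay 66 to 48 bases before the start, those of HSP90B1 194 to 176 and 89 to 71 bases before it, and the ERSE-II of HERPUD1 117 to 107 bases before it. PDIA6 had the element in 1 of its 2 entries. Distances are from the RefSeq start of the entry. For HSP90B1, CRELD2 and PDIA6 it lies downstream of the GENCODE start given above, so that these elements fall inside the GENCODE span. It also lies downstream for HERPUD1, SDF2L1 and CALR, whose elements are before the GENCODE start but nearer to it than to the RefSeq start. Neither spelling was found in the windows of DNAJB9 and PDIA4. The 8 genes with an element include those that fell furthest with Astragalus (HSP90B1, HSPA5) and HERPUD1, which rose.

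HSPA5, which fell with Astragalus, and HERPUD1, which rose, are shown at greater length: the 250 bases before the start of HSPA5 (chr9:125241344-125241593, minus strand) and the 156 bases of the HERPUD1 window that lie before its first annotated exon (chr16:56931892-56932047, plus strand), both written in the direction of the gene.
HSPA5 promoter: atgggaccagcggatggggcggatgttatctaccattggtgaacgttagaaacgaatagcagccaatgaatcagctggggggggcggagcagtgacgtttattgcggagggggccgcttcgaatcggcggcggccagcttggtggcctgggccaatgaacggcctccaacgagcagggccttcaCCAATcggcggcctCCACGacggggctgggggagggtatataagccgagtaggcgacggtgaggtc
HERPUD1 promoter: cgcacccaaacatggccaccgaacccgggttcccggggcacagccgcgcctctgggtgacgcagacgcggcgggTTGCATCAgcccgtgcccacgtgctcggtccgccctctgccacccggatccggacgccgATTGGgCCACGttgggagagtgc
The capitals mark ERSE in HSPA5, and in HERPUD1 ERSE-II together with TTGCATCA. The latter is the reverse complement of TGATGCAA, a composite C/EBP-ATF site of the kind bound by ATF4. It lies 176 to 169 bases before the RefSeq start, and nearer to the GENCODE start. TGATGCAA was present on either strand in 271 of 35116 entries (0.772%), and among the 10 genes in HERPUD1 alone. Another element, TGACGTGG (UPRE, 215 entries, 0.612%), was found in HYOU1 alone among the 10, where it overlaps the upstream ERSE-II. These matches describe letters in the windows and were not measured as binding sites here.

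Summed expected counts ran from 21485882 to 34643028 per library, and from 26383865 to 31017834 in the vehicle libraries. All 10 genes passed the filter on low counts. The liver markers ALB, AFP, APOA2, TTR, FGB and SERPINA1 were detected in all 60 libraries. Of 7 markers of other cell types, PTPRC (leukocytes) was at 0 in 60 libraries and COL3A1 in 52, while CD68 ranged from 38.8 to 174 CPM (a count scaled to a common library size) and ACTA2 from 47.6 to 98.8 CPM. The transcripts of the mitochondrial genome took 14.2% of the counts in the vehicle group, 25.8% with Astragalus at 500 µg/mL and 20.9% with Paeonia at 500 µg/mL. Most of the falls of the genes below were in those Astragalus and Paeonia groups. Shares nearly as high as with Paeonia were seen with Angelica at 20 µg/mL (19.8%) and 500 µg/mL (19.7%) and Astragalus at 100 µg/mL (19.6%). Against vehicle, 4 members rose and 1 fell with Angelica at 20 µg/mL (13.7% and 13.8% of all genes tested). With Angelica at 500 µg/mL 2 rose and 0 fell (11.4% and 10.9%). With Astragalus at 100 µg/mL 4 rose and 2 fell (19.5% and 20.0%). A link to the mitochondrial share was not tested. With mitochondrial transcripts left out before scaling, 7 members fell and 2 rose with Astragalus at 500 µg/mL. In the main fit 36.1% of all genes tested fell and 33.7% rose. That alternative changes the genes fitted and the scaling, and does not test a link.

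In vehicle-treated cells CALR, HSPA5 and HSP90B1 were the most abundant of the 10 genes. Per kilobase of exon sequence, mean levels were 402 CPM per kb for CALR, 244 for HSPA5, 217 for HSP90B1, 147 for PDIA6, 146 for PDIA4 and 32.8 for HYOU1. The other 4 genes were far less abundant, at 13.3 CPM per kb for SDF2L1, 12.9 for HERPUD1, 5.60 for CRELD2 and 4.82 for DNAJB9. The exon lengths are those of all annotated exons merged, so these levels understate genes with many alternative exons. Below, CPM are per library on the TMM-scaled library size and are compared between groups for 1 gene at a time.

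**Figure D1:**
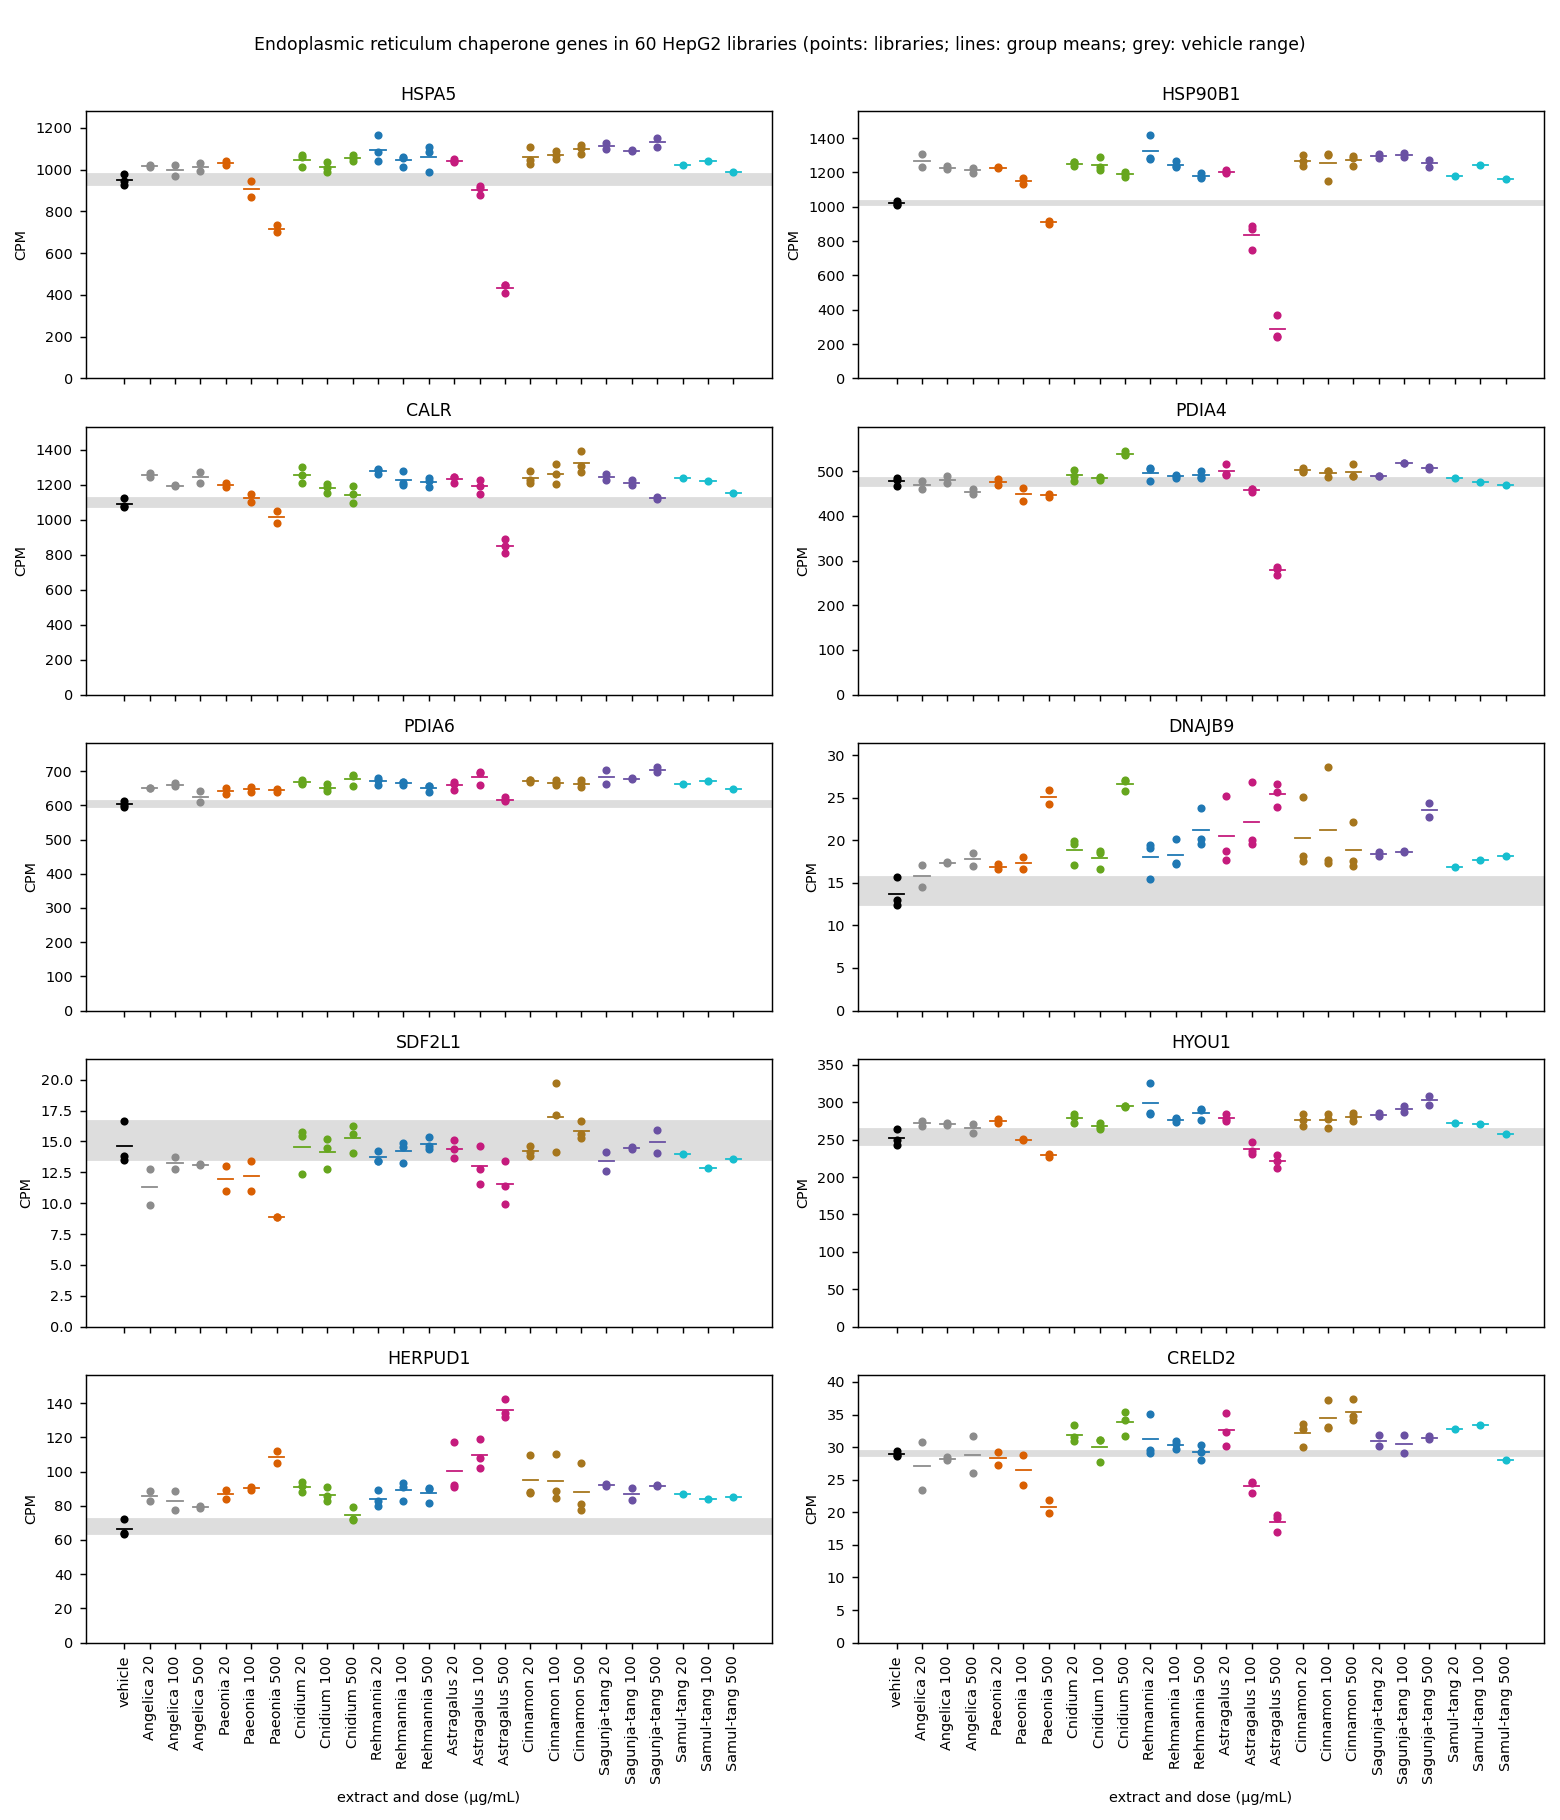
Level of each of the 10 genes (vertical axes, CPM from 0) in each of the 60 libraries, ordered along the horizontal axes by extract and dose, with a point per library, a line at each group mean and a grey band over the range of the 3 vehicle libraries. HSPA5, HSP90B1, PDIA4 and CALR are lowest with Astragalus at 500 µg/mL, while HERPUD1 is highest there.

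Astragalus at 500 µg/mL lowered 7 of the 10 genes against vehicle and raised 2, DNAJB9 and HERPUD1. In the same comparison 36.1% of all genes tested fell and 33.7% rose, so the share of members that fell was above the background and the share that rose was below it. The median log2 fold change of the 10 was -0.36, against -0.05 over all genes. HSP90B1 and HSPA5 fell furthest, and PDIA6 was the member that did not pass the test.

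HSP90B1 stood at 1009, 1019 and 1034 CPM in the vehicle libraries and at 238.7, 248.2 and 372.1 CPM with Astragalus at 500 µg/mL. The groups did not overlap, and 1 of the 3 treated libraries was well above the other 2. The fall was 3.56-fold (log2 fold change -1.83, SE 0.08, adjusted p = 7.4e-24, edgeR). HSPA5 went from 928.1, 946.6 and 980.3 CPM to 410.2, 445.9 and 447.1 CPM, again without overlap and with little spread in either group. It fell 2.19-fold (log2 fold change -1.13, SE 0.04, adjusted p = 7.4e-26, edgeR). HYOU1, which exchanges nucleotide on BiP, changed little beside its partner: it stood at 243.2, 249.3 and 264.8 CPM in vehicle and at 211.7, 221.6 and 230.1 CPM with the extract. The groups did not overlap, and the fall was 1.14-fold (log2 fold change -0.19, SE 0.04, adjusted p = 6.8e-05, edgeR).

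CALR, the lectin chaperone of glycoproteins, fell 1.28-fold, from 1092 ± 27.2 CPM to 850 ± 39.6 CPM (SD, n = 3 libraries each, adjusted p = 2.6e-10, edgeR). The isomerases parted. PDIA4 stood at 468.0, 481.3 and 485.6 CPM in vehicle and at 268.7, 281.7 and 285.3 CPM with the extract, a 1.72-fold fall (log2 fold change -0.78, SE 0.03, adjusted p = 3e-24, edgeR). PDIA6 stood at 596.2, 600.4 and 612.4 CPM in vehicle and at 611.9, 615.7 and 623.0 CPM with the extract, ranges that overlapped by less than 1 CPM (log2 fold change 0.03, SE 0.03, adjusted p = 0.35, edgeR). Its direction depends on the scaling: in CPM without TMM, which moved the log2 ratio of Astragalus at 500 µg/mL to vehicle by -0.38 for these genes, PDIA6 had a log2 ratio of -0.35, and the other 9 kept their directions.

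The least abundant members also differed in direction. CRELD2 fell 1.56-fold, from 28.6, 28.7 and 29.4 CPM to 16.9, 19.1 and 19.6 CPM (adjusted p = 5.7e-09, edgeR), with no overlap. SDF2L1 fell from 14.7 ± 1.75 CPM to 11.6 ± 1.73 CPM (SD, n = 3 libraries each; log2 fold change -0.36, adjusted p = 0.004, edgeR), with all 3 treated libraries below the lowest vehicle library. Its call rested on single libraries: without vehicle replicate 2 the adjusted p was 0.061, and without Astragalus replicate 3 it was 0.065. DNAJB9, the J-domain partner of BiP, stood at 12.4, 13.0 and 15.6 CPM in vehicle and at 23.8, 25.7 and 26.6 CPM with the extract, a 1.85-fold rise (log2 fold change 0.89, SE 0.15, adjusted p = 6.7e-07, edgeR). HERPUD1 stood at 63.6, 64.3 and 72.2 CPM in vehicle and at 132.0, 134.1 and 142.1 CPM with the extract, a 2.04-fold rise (log2 fold change 1.03, SE 0.09, adjusted p = 3.4e-13, edgeR). Neither pair of groups overlapped. The 10 genes together summed to 4522 ± 48.8 CPM in vehicle and to 2879 ± 59.9 CPM with the extract (SD, n = 3 libraries each), a sum dominated by the 5 most abundant members.

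At 100 µg/mL of Astragalus, 2 members fell and 4 rose (20.0% and 19.5% of all genes tested). HSP90B1 already fell, at 746.4, 873.5 and 886.4 CPM (log2 fold change -0.29, SE 0.08, adjusted p = 0.0026, edgeR), below all vehicle libraries. CRELD2 also fell, by 0.26 on the log2 scale. HSPA5 was at 878.0, 911.5 and 921.4 CPM, just under the lowest vehicle library, and did not pass the test (log2 fold change -0.07, adjusted p = 0.17, edgeR). HERPUD1 and DNAJB9 rose by log2 fold changes of 0.72 and 0.70, PDIA6 by 0.18 and CALR by 0.13.

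Within the extract, from 20 to 500 µg/mL, 8 members fell and 1 rose (35.3% and 34.2% of all genes tested). This comparison uses no vehicle library. HSP90B1 fell 4.20-fold, from 1197, 1202 and 1213 CPM (log2 fold change -2.07, SE 0.08), and HSPA5 fell 2.40-fold, from 1038, 1041 and 1050 CPM (log2 fold change -1.26, SE 0.04). PDIA4, CRELD2 and CALR fell by 0.85, 0.82 and 0.54 on the log2 scale, HYOU1 and SDF2L1 by 0.34 and 0.32, and PDIA6 by 0.10. The call of SDF2L1 was lost without Astragalus replicate 3 at 500 µg/mL (adjusted p = 0.10). HERPUD1 rose (log2 fold change 0.44, adjusted p = 5.1e-05, edgeR).

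DNAJB9 did not pass the test between the 2 doses (log2 fold change 0.30, SE 0.14, adjusted p = 0.051, edgeR), a call that turned with the setting and with 1 library. It passed with DESeq2 (adjusted p = 0.039), with DESeq2's size factors in edgeR (adjusted p = 0.042) and without the filter on low counts. Replicate 1 of Astragalus at 20 µg/mL stood at 25.2 CPM, against 17.6 and 18.7 CPM in the other 2, and without it DNAJB9 rose (log2 fold change 0.48, adjusted p = 0.0048). Replicate 1 was the highest of the 3 libraries for DNAJB9 in all 6 groups of Astragalus and Cinnamon, and likewise for HERPUD1 in all 6. No other member had a single replicate number highest in all 6 of these groups. In the 6 groups of Cnidium and Rehmannia, HERPUD1 was highest in replicate 3 in all 6, and DNAJB9 in replicate 2 in 3 groups and in replicate 3 in the other 3. The library number and the levels of these 2 genes thus moved together in the Astragalus and Cinnamon set, and those of HERPUD1 in the Cnidium and Rehmannia set as well.

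**Figure D2:**
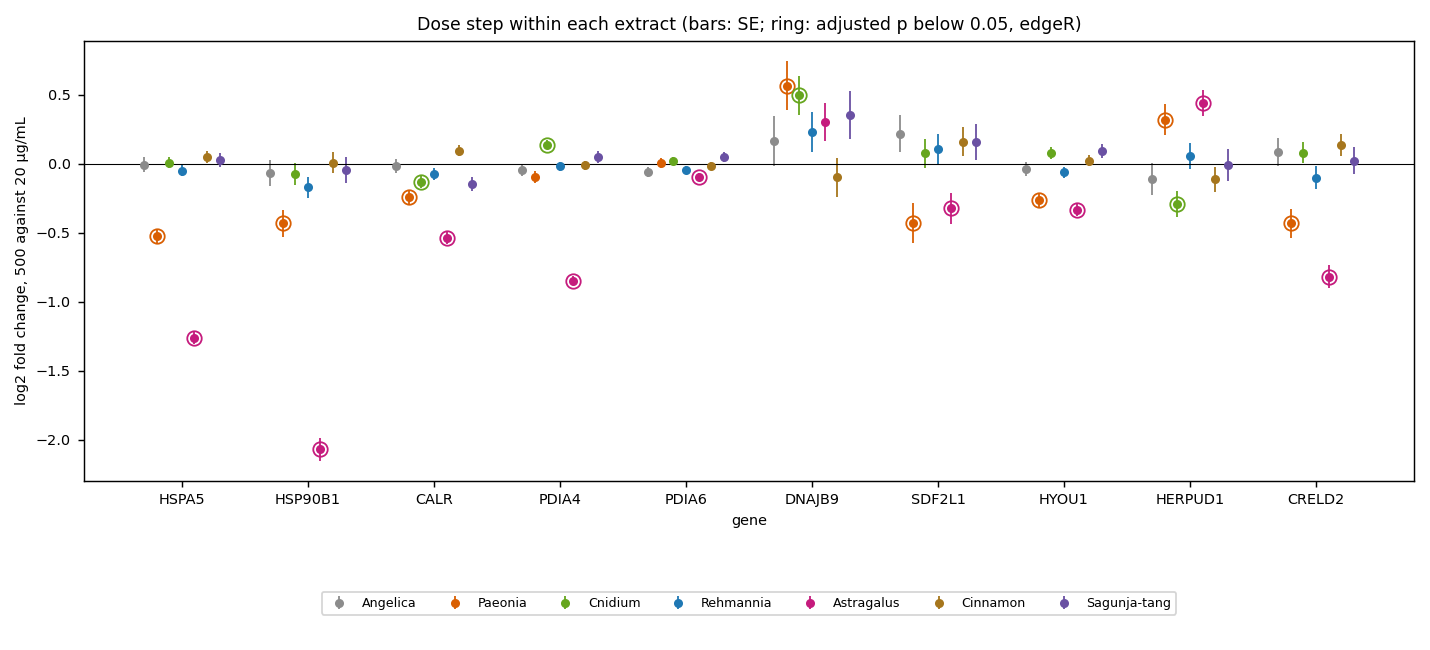
Log2 fold change of each of the 10 genes between 500 and 20 µg/mL (vertical axis) within each of 7 extracts (colours), with SE bars and a ring where the adjusted p was below 0.05. Astragalus reaches -2.07 for HSP90B1 and -1.26 for HSPA5, and Paeonia is below 0 for the same 2 genes, while the other extracts lie near 0.

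The dose step of Astragalus was tested directly against the mean dose step of the other 6 replicated extracts. The difference passed the test for 9 of the 10 genes, lower for 8 and higher for 1 (32.7% and 32.1% of all genes tested). HSP90B1 stepped down by a log2 difference of -1.94 (SE 0.09, adjusted p = 4.1e-23, edgeR) relative to the other extracts and HSPA5 by -1.18 (SE 0.05, adjusted p = 8.9e-25). HERPUD1 stepped up by 0.46 (SE 0.10, adjusted p = 0.00011). DNAJB9 did not differ in its step by this test (log2 difference 0.02, SE 0.15, adjusted p = 0.94). The difference for PDIA6, -0.09, lost its call without Astragalus replicate 1 at 500 µg/mL and without replicate 1 or 2 at 20 µg/mL (adjusted p from 0.054 to 0.074), and that for SDF2L1, -0.37, without replicate 3 at 500 µg/mL (adjusted p = 0.071). The same test for the other extracts has Astragalus in the mean it compares with. Against that mean, 4 members stepped lower with Paeonia (9.54% of all genes lower, 13.0% higher), 5 higher and 1 lower each with Cnidium (12.1%, 10.5%) and Cinnamon (9.40%, 8.97%), 4 higher with Sagunja-tang (4.82%, 3.27%), 3 higher with Rehmannia (5.82%, 4.80%) and 2 higher with Angelica (5.62%, 5.39%). With Astragalus left out of the mean, an alternative added after seeing the data, 7 members stepped lower and 1 higher with Paeonia, 1 higher each with Cnidium (PDIA4) and Cinnamon (CALR). Over all genes 14.1% then stepped lower and 15.9% higher with Paeonia, 3.14% higher with Cnidium and 0.779% higher with Cinnamon.

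Cinnamon shares its sample code prefix with Astragalus and so gives a comparison within that set. At 500 µg/mL, 8 members were lower with Astragalus than with Cinnamon and 2 were higher, DNAJB9 and HERPUD1 (35.5% and 34.8% of all genes tested). The differences ran from -2.15 for HSP90B1 (SE 0.08) through -0.11 for PDIA6 (SE 0.03) to 0.63 for HERPUD1 (SE 0.09). HSPA5 stood at 1072, 1105 and 1116 CPM with Cinnamon, above every library of Astragalus at 500 µg/mL.

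Paeonia at 500 µg/mL, with 2 libraries, lowered 5 members against vehicle and raised 3 (23.0% and 23.3% of all genes tested). Of the abundant chaperones HSPA5 fell furthest, at 699.5 and 733.4 CPM, below all vehicle libraries (log2 fold change -0.41, SE 0.05, adjusted p = 2.3e-09, edgeR). HSP90B1 stood at 900.5 and 917.6 CPM, also below the vehicle libraries, but did not pass the test (log2 fold change -0.17, adjusted p = 0.12, edgeR). SDF2L1 stood at 8.90 and 8.91 CPM, its lowest mean of the 25 groups (log2 fold change -0.72, SE 0.13, adjusted p = 8.9e-06, edgeR). CRELD2 fell by 0.47 on the log2 scale, HYOU1 by 0.14 and PDIA4 by 0.10.

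As with Astragalus, DNAJB9 and HERPUD1 rose with Paeonia at 500 µg/mL. DNAJB9 stood at 24.2 and 26.0 CPM (log2 fold change 0.87, SE 0.16, adjusted p = 1.4e-05, edgeR) and HERPUD1 at 104.8 and 111.9 CPM (log2 fold change 0.70, SE 0.10, adjusted p = 3.2e-07, edgeR), all above the highest vehicle library. PDIA6 rose by a log2 fold change of 0.10, a direction that reverses in CPM without TMM (log2 ratio -0.12). Both extracts are compared with the same 3 vehicle libraries. Without Paeonia replicate 2, 5 members passed in place of 8, 3 lower and 2 higher: PDIA4, PDIA6 and HYOU1 were lost, with adjusted p of 0.13, 0.07 and 0.083. PDIA4 and PDIA6 were lost as well without Paeonia replicate 3 (0.062 and 0.12) and without vehicle replicate 2 (0.064 and 0.076), PDIA4 and HYOU1 without vehicle replicate 3 (0.054 and 0.087), and PDIA6 without vehicle replicate 1 (0.063). CALR, with a log2 fold change of -0.10, passed without Paeonia replicate 3 (adjusted p = 0.045).

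Between 20 and 500 µg/mL of Paeonia, without any vehicle library, 6 members fell and 2 rose (13.9% and 16.8% of all genes tested). HSPA5 fell from 1024 and 1041 CPM (log2 fold change -0.53, SE 0.05, adjusted p = 8e-11, edgeR). HSP90B1 fell from 1224 and 1231 CPM (log2 fold change -0.43, SE 0.10, adjusted p = 0.00038, edgeR). CRELD2 and SDF2L1 fell by 0.43 each on the log2 scale, HYOU1 by 0.26 and CALR by 0.24, and DNAJB9 and HERPUD1 rose by 0.57 and 0.32. With 2 libraries per group the weaker calls rested on single libraries. HERPUD1 was lost without any 1 of the 4 libraries (adjusted p from 0.06 to 0.20), DNAJB9 without Paeonia replicate 2 at 500 µg/mL or either library at 20 µg/mL (0.056 to 0.083), and SDF2L1 without either library at 500 µg/mL or replicate 3 at 20 µg/mL (0.065 to 0.25). Without Paeonia replicate 2 at 500 µg/mL, or replicate 3 at 20 µg/mL, 5 members passed, all lower. Angelica, which shares the code prefix, had higher levels than Paeonia at 500 µg/mL for 6 members and lower for DNAJB9 and HERPUD1 (18.8% and 20.4% of all genes tested), among them HSPA5 at 995.0 and 1031 CPM.

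**Figure D3:**
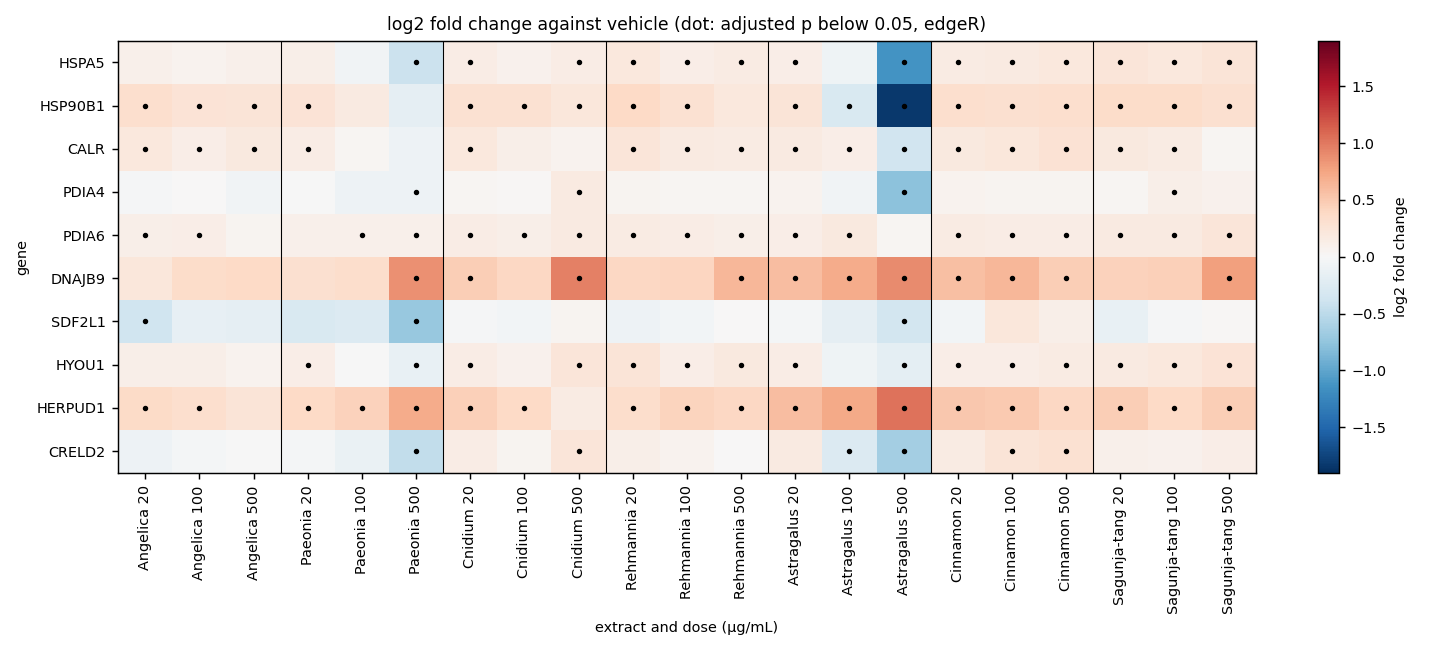
Log2 fold change against vehicle (colour, red higher and blue lower) of the 10 genes (rows) for 7 extracts at 20, 100 and 500 µg/mL (columns), with a dot where the adjusted p was below 0.05. The blue blocks are at 500 µg/mL of Astragalus and Paeonia, and HERPUD1 and DNAJB9 are red in those columns.

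At the lowest dose most members stood slightly above vehicle. The mean of the 7 extracts at 20 µg/mL was higher than vehicle for 7 of the 10 genes and lower for 0 (15.5% and 16.8% of all genes tested). The largest were HERPUD1 (log2 fold change 0.44, SE 0.08, adjusted p = 1.5e-05, edgeR) and DNAJB9 (0.42, SE 0.12, adjusted p = 0.0042), followed by HSP90B1 (0.31, SE 0.06, adjusted p = 0.00015). CALR, HSPA5, HYOU1 and PDIA6 rose by log2 fold changes of 0.14 to 0.19. SDF2L1 (-0.14), CRELD2 (0.08) and PDIA4 (0.03) did not pass the test. The 7 rises were called with any 1 library or any 1 extract left out, and kept their direction in CPM without TMM, where all log2 ratios were lower by 0.08. No vehicle library carries a sample code prefix of an extract, so for these rises the extract and the sample set cannot be told apart. Nor were they particular to the 10 genes, whose median was 0.15. Of 15 cytosolic heat shock chaperones 10 were higher and 0 lower in this mean (median 0.25). Of 23 other chaperones and co-chaperones of the endoplasmic reticulum 11 were higher and 3 lower. Of 18 secreted liver proteins 9 were higher and 1 lower, and of 5 tested markers of other cell types 0 were higher.

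By single extracts at 20 µg/mL, 41 of 70 tests were higher than vehicle and 1 lower. Cnidium, Astragalus and Cinnamon each raised 7 members (9.08%, 7.03% and 5.74% of all genes higher, and 9.18%, 6.14% and 5.07% lower), and Rehmannia and Sagunja-tang each raised 6 (9.78% and 6.40% higher, 10.1% and 6.69% lower). Angelica raised 4 and lowered 1, SDF2L1 (13.7% higher and 13.8% lower), and Paeonia raised 4 (9.76% higher and 10.1% lower). HSP90B1, CALR and HERPUD1 were higher with all 7 extracts, and PDIA4 and CRELD2 with 0 of 7. At 100 µg/mL, 34 of 70 were higher and 2 lower, the latter both with Astragalus. Cinnamon raised 8 members at that dose (4.17% of all genes higher, 3.71% lower), Sagunja-tang 7 (7.36%, 7.11%), Rehmannia 6 (7.33%, 6.82%), Angelica 4 (10.7%, 10.9%), Cnidium 3 (8.57%, 8.24%) and Paeonia 2 (9.09%, 9.43%). At 500 µg/mL 34 were higher and 12 lower, and the 12 were all with Astragalus or Paeonia. When vehicle was replaced by the mean of the remaining 6 extracts at 20 µg/mL, Astragalus at 500 µg/mL lowered 8 members and raised 2 (37.9% and 38.1% of all genes), while Cinnamon at 500 µg/mL raised 2 in place of 8 (6.39% of all genes).

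With the other 5 replicated extracts at 500 µg/mL, members rose or did not pass the test. Against vehicle, 8 members rose with Cinnamon (7.88% of all genes higher), 7 with Cnidium (15.8%), 6 with Rehmannia (10.5%), 6 with Sagunja-tang (13.8%) and 2 with Angelica (11.4%), and no member fell (6.78%, 15.0%, 9.58%, 11.8% and 10.9% of all genes lower). The 2 genes of Angelica were HSP90B1 and CALR, and 0 or 1 member passed once any 1 of its 5 libraries was left out: 0 without Angelica replicate 2, and 1 without Angelica replicate 3 or any vehicle replicate. Between 500 and 20 µg/mL, 0 members changed by edgeR with Angelica (0.443% of all genes higher and 0.611% lower), Rehmannia (0.785% and 0.623%), Cinnamon (0.264% and 0.545%) and Sagunja-tang (5.70% and 4.73%). At an unadjusted p below 0.05 there were 0 members with Angelica, 1 each with Rehmannia (HSP90B1) and Cinnamon (CALR) and 2 with Sagunja-tang (CALR and DNAJB9). DESeq2 called CALR with Sagunja-tang and no member with the other 3.

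With Cnidium at 500 µg/mL DNAJB9 rose against vehicle and HERPUD1 did not pass the test. DNAJB9 stood at 25.7, 26.9 and 27.0 CPM, its highest mean of the 25 groups (log2 fold change against vehicle 0.96, SE 0.14, adjusted p = 1.2e-06, edgeR). HERPUD1 stood at 71.9, 72.3 and 79.0 CPM, which overlaps the vehicle libraries, and did not pass the test (log2 fold change 0.16, SE 0.10, adjusted p = 0.21, edgeR). PDIA4 was at its highest mean too, 539.7 CPM. Between 500 and 20 µg/mL of Cnidium, 2 members rose, DNAJB9 (log2 fold change 0.50, adjusted p = 0.0084) and PDIA4 (0.14, adjusted p = 0.0021), and 2 fell, HERPUD1 (-0.29, adjusted p = 0.024) and CALR (-0.13, adjusted p = 0.019), by edgeR's test, in which 9.56% of all genes rose and 8.83% fell. In place of 4, 2 members passed without Cnidium replicate 1 at 20 µg/mL (1 higher, 1 lower) or without its replicate 3 at that dose (2 higher). Against Rehmannia, which shares the code prefix, Cnidium at 500 µg/mL was higher for PDIA4 alone (log2 difference 0.14, SE 0.03, adjusted p = 0.0044; 4.76% of all genes higher and 5.30% lower).

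Sagunja-tang at 500 µg/mL resembled Cnidium for DNAJB9, with 22.8 and 24.4 CPM (log2 fold change 0.78, SE 0.16, adjusted p = 0.00024, edgeR), and had the highest group means of HSPA5 (1132 CPM), HYOU1 (303 CPM) and PDIA6 (705 CPM). Samul-tang, with 1 library per dose and no test, had HSPA5 at 1022, 1042 and 990.0 CPM at 20, 100 and 500 µg/mL, HSP90B1 at 1177, 1243 and 1162 CPM and HERPUD1 at 87.0, 83.9 and 85.3 CPM. These values lie above the vehicle libraries and show no step of the kind seen with Astragalus.

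Ordered by group mean, Astragalus at 500 µg/mL was the lowest of the 25 groups for HSPA5, HSP90B1, CALR, PDIA4, HYOU1 and CRELD2 and the highest for HERPUD1. Vehicle was the lowest for PDIA6, DNAJB9 and HERPUD1. The means spread 4.63-fold from lowest to highest for HSP90B1 and 2.61-fold for HSPA5, but 1.17-fold for PDIA6 and 1.37-fold for HYOU1. Most neighbours in these orders could not be told apart by their libraries: of 24 neighbouring pairs, 17 overlapped for HSPA5, 18 for HSP90B1, 20 for PDIA4, 21 for CRELD2, 22 each for CALR and HYOU1, and 23 for each of the other 4 genes.

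**Figure D4:**
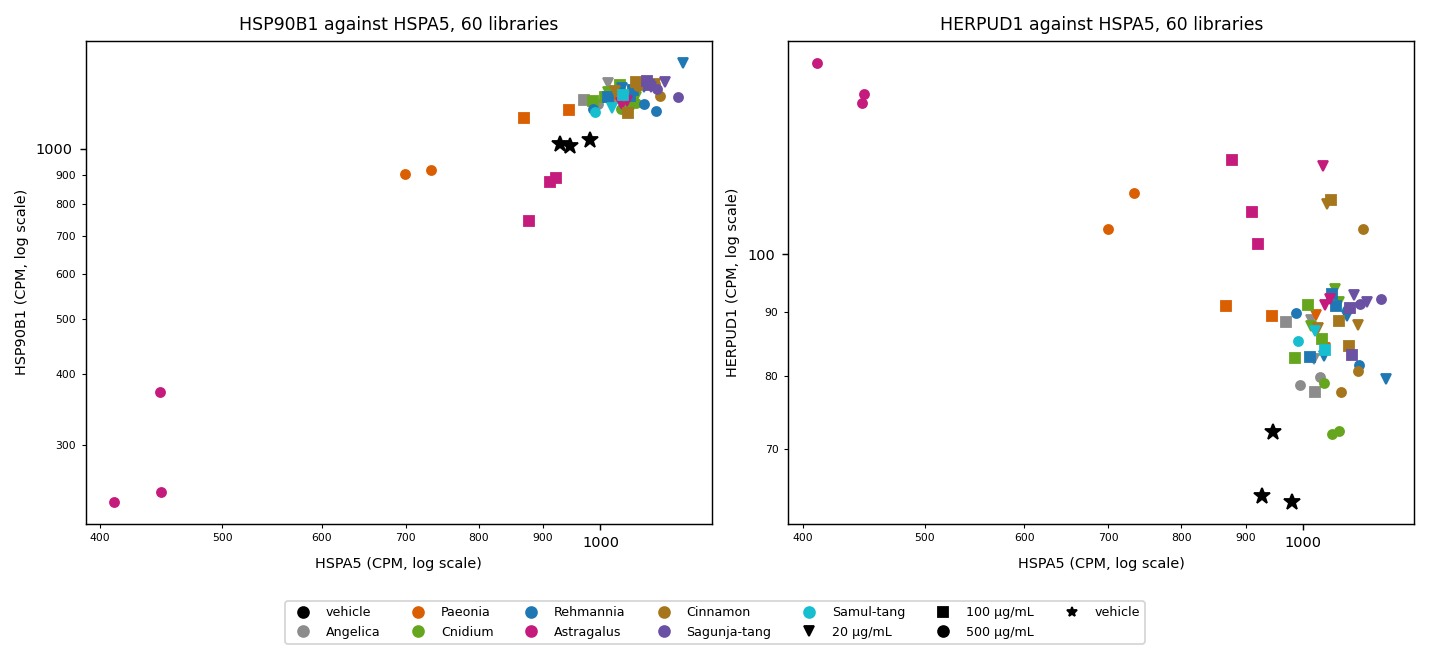
HSP90B1 (left) and HERPUD1 (right) against HSPA5, all in CPM on log axes, with a symbol per library: colour gives the extract and shape the dose, with stars for vehicle. The 3 libraries of Astragalus at 500 µg/mL lie at the lower left for HSP90B1 and at the upper left for HERPUD1.

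Across the 25 group means of log2 CPM, HSPA5 had a Pearson correlation of 0.96 with HSP90B1, 0.94 with PDIA4, 0.90 with CALR and 0.87 with CRELD2, and -0.69 with HERPUD1. These are descriptions over groups that share vehicle, extract and sample set. Without Astragalus at 500 and 100 µg/mL and Paeonia at 500 µg/mL, over 22 groups, they were 0.71, 0.69, 0.52, 0.63 and 0.37 in the same order, so the negative value for HERPUD1 rests on those 3 groups. Among libraries of the same group, the deviations of DNAJB9 and HERPUD1 from their group means had a correlation of 0.76 over 57 libraries, and those of HSPA5 and HSP90B1 of 0.40. Replicate 1 was the highest library for both DNAJB9 and HERPUD1 in all 6 groups of Astragalus and Cinnamon. In that set their correlation cannot be told apart from the library number.

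The genes whose profile over the 25 groups was most like the mean of the 10 standardised profiles were sought among 10443 other genes with at least 5 CPM on average. The 8 with the highest correlation were MANF (0.93), HSPA1B (0.92), CHORDC1 (0.90), TARDBP (0.89), DNAJA1, ARL14EP and GMPPB (0.88 each) and FAM136A (0.88). MANF is a secreted factor of the endoplasmic reticulum, at 79.3 CPM in vehicle and 56.6 CPM with Astragalus at 500 µg/mL. HSPA1B, CHORDC1 and DNAJA1 belong to cytosolic chaperone systems, and DNAJA1 went from 232 to 121 CPM. HSPA1B shares nearly all of its sequence with HSPA1A, so the division of reads between the 2 is uncertain. The members' own correlations with this mean were 0.89 for HSPA5, 0.88 each for HYOU1 and CRELD2, 0.69 for SDF2L1, -0.02 for DNAJB9 and -0.40 for HERPUD1.

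Other genes of the pathway were followed in lists by role. Over all genes tested, 33.7% rose and 36.1% fell with Astragalus at 500 µg/mL against vehicle, and 34.2% and 35.3% against its 20 µg/mL. Among 23 other chaperones and co-chaperones of the endoplasmic reticulum, 8 rose and 9 fell with Astragalus at 500 µg/mL against vehicle (median log2 fold change -0.02, against -0.05 over all genes), while 7 rose and 12 fell against 20 µg/mL (median -0.16, against -0.02 over all genes). The largest falls were of SEC63 (-1.27), which recruits BiP to the translocation channel, FKBP7 (-0.68) and DNAJC3 (-0.67), and the largest rises of SDF2 (0.92), HSPA13 (0.79) and ERP29 (0.57). Among 16 other disulfide isomerases and oxidases tested, 8 rose and 6 fell against vehicle, and 7 rose and 7 fell against 20 µg/mL. The oxidases QSOX1 (1.81) and ERO1A (1.02) rose, and the isomerase PDIA3 fell by 0.44 on the log2 scale. With Paeonia at 500 µg/mL against vehicle, 13 of the 23 other chaperones and co-chaperones rose and 1 fell. Of the 16 isomerases and oxidases 12 rose and 1 fell (23.3% and 23.0% of all genes). Against 20 µg/mL of Paeonia, 5 rose and 1 fell in the first list and 10 and 0 in the second (16.8% and 13.9%).

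The targets of PERK and ATF4 rose with Astragalus and Paeonia at 500 µg/mL, where most falls of members were called, but not only there. With Astragalus at 500 µg/mL, 12 of 14 tested rose and 1 fell, CEBPG, with a median log2 fold change of 1.54. Over all genes 33.7% rose and 36.1% fell. CEBPB went from 23.6 to 109 CPM (log2 fold change 2.20), GDF15, a secreted stress cytokine, from 151 to 667 CPM (2.14) and PPP1R15A, a phosphatase subunit that ends the translational arrest, from 11.9 to 51.5 CPM (2.11). With Paeonia at 500 µg/mL, 11 of 14 rose and 0 fell (median 1.18), led by SLC7A11 (2.19), GDF15 (1.93) and VLDLR (1.62). Over all genes 23.3% rose and 23.0% fell with Paeonia. At 100 µg/mL of Astragalus, 12 of 14 rose and 0 fell (19.5% and 20.0% of all genes), where 4 members rose and 2 fell. Between 500 and 20 µg/mL, 12 of 14 rose with either extract, and 1 fell with Astragalus and 0 with Paeonia. Over all genes 34.2% rose and 35.3% fell with Astragalus, and 16.8% and 13.9% with Paeonia. With the other replicated extracts at 500 µg/mL no member fell against vehicle. There 8 targets rose and 2 fell with Rehmannia (10.5% and 9.58% of all genes), and 7 and 0 with Sagunja-tang (13.8%, 11.8%). These counts were 6 and 2 with Cnidium (15.8%, 15.0%), 3 and 3 with Cinnamon (7.88%, 6.78%) and 3 and 5 with Angelica (11.4%, 10.9%).

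Of 12 sensors and transcription factors of the response, 7 rose and 0 fell with Astragalus at 500 µg/mL against vehicle, where 33.7% of all genes rose and 36.1% fell. Against its own 20 µg/mL, 6 rose and 4 fell (34.2% and 35.3% of all genes). Against Cinnamon at 500 µg/mL 7 rose and 3 fell (34.8% and 35.5%). CREB3 (log2 fold change 1.00 against vehicle), ATF4 (0.82) and ERN1, which encodes IRE1 (0.69), had the largest rises. XBP1 did not pass the test against vehicle (log2 fold change -0.07, SE 0.04, adjusted p = 0.13, edgeR), and gene counts do not show its splicing; it was named after its value was seen. With Paeonia 8 of 12 rose and 0 fell (23.3% and 23.0% of all genes). Genes of endoplasmic reticulum-associated degradation, the process HERPUD1 serves, rose in 14 of 22 and fell in 4 with Astragalus against vehicle, and rose in 11 and fell in 7 against 20 µg/mL. Against vehicle, AUP1 (1.01) and DERL1 (0.78) rose, while UBXN4 fell by 1.26, SEL1L by 0.45 and UBE2G2 by 0.36 on the log2 scale. With Paeonia 9 of 22 rose and 2 fell (23.3% and 23.0% of all genes).

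**Figure D5:**
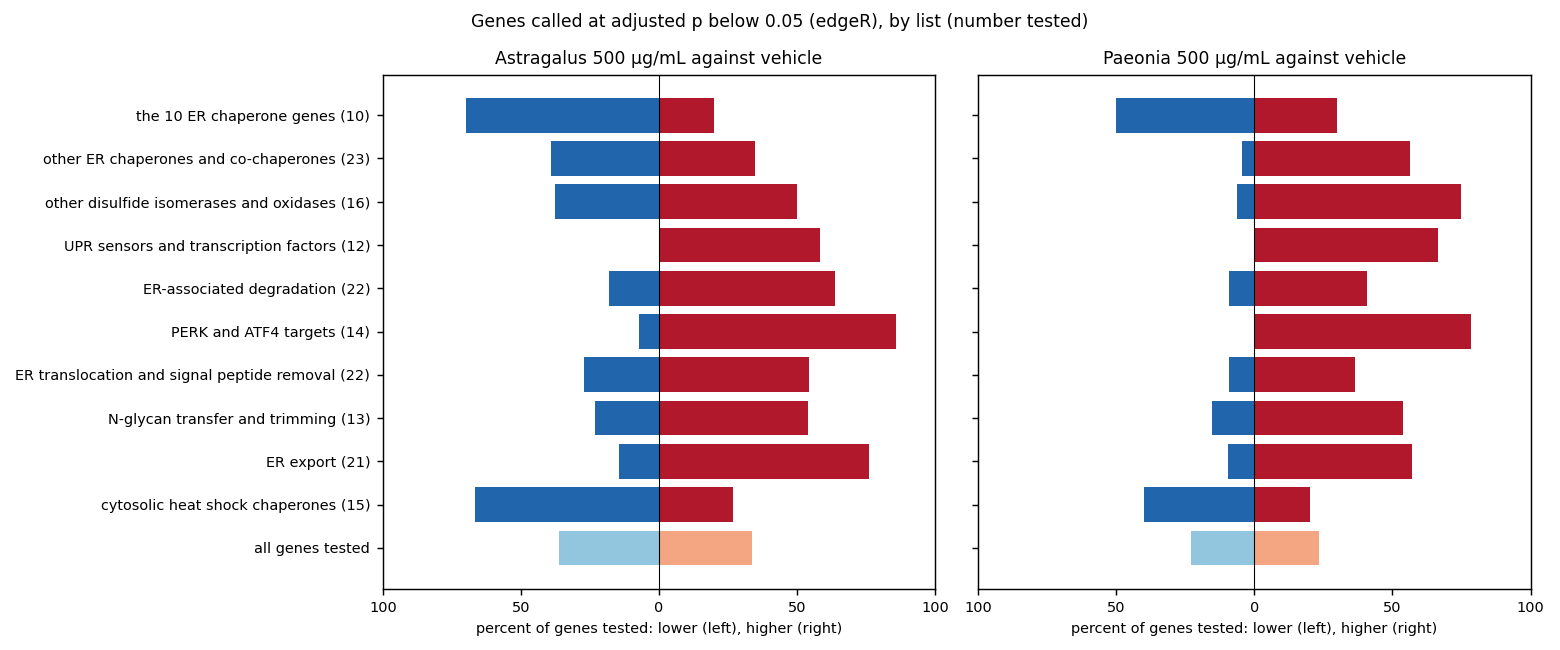
Percent of the tested genes of each list (rows, with the number tested) that were lower (blue, left) or higher (red, right) than vehicle at adjusted p below 0.05, with Astragalus (left panel) and Paeonia (right panel) at 500 µg/mL. The 10 chaperone genes and the cytosolic heat shock chaperones have their longer bar on the left in both panels, and the PERK and ATF4 targets on the right.

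The steps before and after folding were followed in the same way, with 33.7% of all genes higher and 36.1% lower for Astragalus at 500 µg/mL against vehicle. Against its 20 µg/mL these shares were 34.2% and 35.3%. Of 22 genes of translocation and signal peptide removal 12 rose and 6 fell, but against 20 µg/mL 10 rose and 9 fell. Against vehicle, SEC61G of the channel rose (log2 fold change 1.17), while SEC62, its partner, fell by 1.23 and SRP72 of the signal recognition particle by 0.87. Of 13 genes of N-glycan transfer and trimming, 7 rose and 3 fell (8 and 2 against 20 µg/mL), with DAD1, a subunit of the oligosaccharyl transferase, the highest (1.08). Of 21 genes of export to the Golgi, 16 rose and 3 fell (12 and 4 against 20 µg/mL), with the retrieval receptor KDELR3 the highest (1.18) and the cargo receptor LMAN1 the lowest (-0.39). Of 18 secreted liver proteins, the cargo of this pathway, 8 rose and 8 fell (5 and 9 against 20 µg/mL), from VTN (0.75) and AHSG (0.88) to FGA (-1.03) and AFP (-0.99).

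Cytosolic heat shock chaperones, which fold proteins outside the endoplasmic reticulum, were followed beside the 10 genes. With Astragalus at 500 µg/mL against vehicle, 10 of 15 fell and 4 rose (median log2 fold change -0.52, against -0.05 over all genes). Over all genes 36.1% fell and 33.7% rose. HSP90AA1, the cytosolic paralog of HSP90B1, went from 1595 to 291 CPM (log2 fold change -2.45, SE 0.09), HSPH1 fell by 1.48 and HSPA4L by 1.46 on the log2 scale, and the small heat shock protein gene HSPB1 rose (0.99). Between 500 and 20 µg/mL, 12 fell and 1 rose with Astragalus (35.3% and 34.2% of all genes), and 11 fell and 0 rose with Paeonia (13.9% and 16.8%).

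Levels of markers moved with the Astragalus result as well. The summed level of the 7 markers of other cell types was 112 to 117 CPM in vehicle, 249 to 275 CPM with Astragalus at 500 µg/mL and 160 to 170 CPM with Paeonia at 500 µg/mL, nearly all of it CD68 and ACTA2. Of the 5 of these markers tested, CD68, ACTA2 and VWF rose and COL1A1 and PECAM1 fell with Astragalus, and CD68 rose and COL1A1 fell with Paeonia. PTPRC was at 0 in all of these libraries. The 6 liver markers summed to 37610 to 37850 CPM in vehicle and 31360 to 39000 CPM with Astragalus, with AFP and ALB lower and SERPINA1 and APOA2 higher. Their part in the chaperone results was not tested. Every library is labelled as the HepG2 line. In a bulk sample a change in the share of some cells of the line and a change in RNA per cell cannot be told apart.

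Outside the 10 members, 35 symbols had ERSE or ERSE-II in the window and 22 of them were tested. With Astragalus at 500 µg/mL against vehicle, 10 of the 22 fell and 9 rose, with a median log2 fold change of -0.10 beside -0.05 over all genes, of which 36.1% fell and 33.7% rose. Among these, EIF2A (-0.56), ERO1B (-0.59) and CANX (-0.13), the membrane-bound relative of calreticulin, fell, and SERP1 (0.40) and NUCB1 (1.03) rose. These 5 were picked by name after their values were seen. SHCBP1 (-1.44) and RAD9A (-1.07) fell further than any of them, and GYS1 rose by a log2 fold change of 0.95. At 20 µg/mL, as a mean of 7 extracts, 8 of the 22 were higher and 2 lower, beside 15.5% and 16.8% of all genes.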

How the data were processed

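Total RNA of HepG2 cells was sequenced in 60 libraries of 25 groups. The table deposited by the authors holds expected counts per gene, made with STAR 2.7.3a and RSEM 1.3.3 after Trim Galore 0.6.5 and FastQC 0.11.9, with GRCh38, per the submitters' processing notes. The annotation release and the use of strand in counting are not given in the sources used here. RSEM divides reads shared by near-identical genes by estimate, and 8.21% of the values were not whole numbers (tolerance 1e-09), so expected counts were rounded. Of 270 columns, 210 belong to no sample used here and were left out. Symbols were matched through gene ID for 57055 of 60675 rows, which held 99.96% of the counts. Positions come from GENCODE 29 and promoters from RefSeq (GRCh38.p14).

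Counts were fitted in edgeR 4.0.16 (R 4.3.3) with 1 coefficient per group, the default low-count filter, TMM factors (0.784 to 1.10) and 35 residual degrees of freedom, over 16692 genes, and tested two-sided by quasi-likelihood with Benjamini-Hochberg adjustment. CPM are on the TMM-scaled library size. The fit was run on simulated counts with a fixed dispersion, few changed genes and no replicate or code prefix effect. That run does not speak to data with such effects or with most genes changed. Where 1 library was left out, the filter and dispersion trend were kept. No 2 libraries held identical values, and chi-square per degree of freedom between replicates was 2.81 or more, so none were merged.

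The genes named by rule are the 10 members, up to 3 called genes per direction and list with the largest change and at least 5 CPM, and the 8 with the most alike profile. XBP1 and genes with ERSE or ERSE-II outside the members were named apart from this rule, after their values were seen. One gene this rule names is not reported here. Members and lists were chosen with earlier results of these data known. Alternatives were DESeq2 1.42.0, its size factors, no filter, mitochondrial transcripts left out, a replicate block, only the groups compared, another reference and each library left out. Leaving Astragalus out of the mean of the other extracts was added after seeing the data.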

Additional observations from a re-analysis of the deposited data

Results flagged for a closer look

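The dose step of an extract is the log2 fold change between 500 and 20 µg/mL, and each value below is the step of 1 extract minus the mean step of the other 6, called where this difference had an adjusted p below 0.05 in edgeR's quasi-likelihood test. No group has more than 3 libraries, so single libraries were not examined as outliers.

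Astragalus had 9 members whose step differed, 8 lower and 1 higher (32.7% and 32.1% of all genes tested). HSP90B1 (-1.94) and HSPA5 (-1.18) were the furthest from the other extracts, followed by PDIA4 (-0.85), CRELD2 (-0.78), CALR (-0.45), SDF2L1 (-0.37), HYOU1 (-0.31) and PDIA6 (-0.09), and HERPUD1 differed upward (0.46).

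For Paeonia the difference was -0.50 for SDF2L1, -0.33 for CRELD2, -0.32 for HSPA5 and -0.22 for HYOU1 (9.54% of all genes lower and 13.0% higher). With Astragalus left out of the mean, which was chosen after seeing the data, HSPA5 differed by -0.53 (adjusted p = 4.7e-10, edgeR), HSP90B1 by -0.36 (adjusted p = 0.0055) and HERPUD1 by 0.41 (adjusted p = 0.009).

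The other extracts differed mostly upward, in a comparison whose mean holds the Astragalus step. Over all genes tested, 5.62% differed upward for Angelica, 12.1% for Cnidium, 5.82% for Rehmannia, 9.4% for Cinnamon and 4.82% for Sagunja-tang. Downward these shares were 5.39%, 10.5%, 4.8%, 8.97% and 3.27% in that order. HSPA5 differed by 0.29 for Angelica, 0.30 for Cnidium, 0.24 for Rehmannia, 0.35 for Cinnamon and 0.32 for Sagunja-tang. HSP90B1 differed by 0.40, 0.39, 0.28, 0.49 and 0.42 for the same extracts in that order. PDIA4 differed by 0.30 for Cnidium, 0.12 for Rehmannia, 0.12 for Cinnamon and 0.20 for Sagunja-tang, and HYOU1 by 0.18 for Cnidium and 0.19 for Sagunja-tang. CRELD2 differed by 0.27 for Cnidium and 0.33 for Cinnamon, and CALR by 0.29 for Cinnamon. Downward differences were those of HERPUD1 for Cnidium (-0.39) and DNAJB9 for Cinnamon (-0.45). With Astragalus left out of the mean, PDIA4 for Cnidium (0.16, adjusted p = 0.003) and CALR for Cinnamon (0.22, adjusted p = 0.0039) were the members of these 5 extracts that still differed.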

How the results depend on the processing

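Of 196 counts of members under other settings 173 stayed within 1.5 times, and of 520 log2 fold changes 496 kept their direction and call. The directions that reversed were those of PDIA6 when the mean of the remaining 6 extracts at 20 µg/mL replaced vehicle, -0.106 for Astragalus and -0.05 for Paeonia at 500 µg/mL. That reference also gave 0 members for Rehmannia and 2 for Cinnamon at 500 µg/mL and 11 of 70 at 100 µg/mL; the cause was not tested. Leaving Astragalus out of the mean step gave 0 members for Angelica, Rehmannia and Sagunja-tang, 1 for Cnidium and Cinnamon and 8 for Paeonia. Without the filter, or with only the groups compared, Angelica against vehicle had 4 members and Cnidium against its 20 µg/mL had 2. Sagunja-tang against its 20 µg/mL had 1 under those settings, DESeq2 size factors, DESeq2's test and mitochondrial transcripts left out. Without the filter Cnidium against Rehmannia had 2 and the Sagunja-tang step 2. Over all genes, 176 changed between the Angelica doses, 388 without the filter and 46 with only the groups compared (42.0%, 58.8% and 52.2% of them higher). For Rehmannia these were 235, 432 and 17 (55.7%, 64.4% and 100.0% higher), and for Cinnamon 135, 210 and 30.

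The replicate block by number gave 4 members for Angelica against vehicle, and by code prefix and number 2 for Sagunja-tang against its 20 µg/mL and 3 for Cnidium against Rehmannia. DNAJB9 between the Astragalus doses passed under either block (log2 fold changes 0.31 and 0.33). The block changed no other named call and moved no other count of members by over 1.5 times. Same-numbered libraries of one code prefix had a mean correlation of deviations of 0.10 over 126 pairs, 69 of them over 0.1. For libraries of one code prefix with other numbers it was -0.06 over 216 pairs, 54 of them over 0.1. Same-numbered libraries were thus somewhat more alike, with single pairs from -0.34 to 0.51. The main fit did not take the numbers as pairs, so a replicate effect is not excluded from it.

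With 1 library left out, members called at 500 µg/mL against vehicle ran from 0 to 1 for Angelica, 5 to 7 for Paeonia and 8 to 9 for Astragalus. Against 20 µg/mL they ran from 5 to 6 for Paeonia, 2 to 3 for Cnidium and 8 to 10 for Astragalus. For the step against the other extracts they ran from 2 to 5 for Paeonia, 1 to 3 for Rehmannia and 2 to 4 for Sagunja-tang. The low ends of the steps came without Paeonia replicate 2 at 500 µg/mL or replicate 3 at 20 µg/mL, without Rehmannia replicate 3 at 500 µg/mL or replicate 2 at 20 µg/mL, and without Sagunja-tang replicate 2 at 20 µg/mL. Where this leaves 1 library in a group, it is assumed to vary like the other groups. DNAJB9 and SDF2L1 have the fewest reads of the 10 genes and the widest standard errors.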
